A study of Homo sapiens with 14 samples.

Results

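The UGT2B enzymes were followed in LNCaP cells through the probe sets annotated to exactly 1 of UGT2B7, UGT2B10, UGT2B11, UGT2B15, UGT2B17 and UGT2B28. A probe set is a group of short probes on an Affymetrix array that is summarised into 1 signal for a transcript. Of the 54613 probe sets in the deposited table, 5 met this rule, and they covered 3 of the 6 genes. UGT2B15 had 3 probe sets (207392_x_at, 216687_x_at and 217175_at), UGT2B17 had 1 (207245_at) and UGT2B28 had 1 (211682_x_at). No probe set stood under UGT2B7, UGT2B10 or UGT2B11 in the annotation used, so these genes were not analysed here, and 0 probe sets joined a member's symbol with another symbol. All 5 had a mean signal of at least 50 over the arrays.

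UGT2B enzymes are membrane proteins of the endoplasmic reticulum that join glucuronic acid, taken from UDP-glucuronic acid, to steroids, bile acids and drugs, which makes them soluble and ready for export. In the prostate, UGT2B15 and UGT2B17 glucuronidate dihydrotestosterone and its metabolite androstanediol, and UGT2B17 also androsterone. This step ends their hormonal action, and UGT2B28 is a close relative that also acts on steroids. In LNCaP cells, androgen is known to lower UGT2B15 and UGT2B17 RNA, and the forkhead factor FOXA1 has been reported to act on their promoters.

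The arrays measured total RNA of LNCaP, an androgen-responsive line derived from a prostate cancer metastasis, in 7 groups of 2 arrays. For 24 h, cells without transfection were given 5 uM TSA, 10 uM Roscovitine or 0.1% DMSO as the solvent control. TSA, or trichostatin A, blocks histone deacetylases, and Roscovitine blocks CDKs, the cyclin-dependent kinases. In a second experiment of 60 h all groups were transfected and none received a drug. One group had a control siRNA (si-Control) and one an siRNA against EZH2 (si-EZH2), the catalytic subunit of a Polycomb complex that methylates histone H3. The other groups had si-EZH2 together with a plasmid encoding EZH2 that escapes the siRNA, in its wild-type form (EZH2sr) or with residue T350 mutated to alanine (T350Asr). The labels name a plasmid for these groups alone and list no group with an empty plasmid. When these groups are compared with si-Control or si-EZH2, the plasmid itself and the EZH2 it encodes cannot be told apart. The labels do not state that both arrays of a group are independent cultures, and the p-values then measure the spread between these samples, which may be technical.

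Array medians lay between 107.25 and 117.03 signal units, and 31.7% to 34.5% of probe sets had a signal under 50. EZH2 fell in the si-EZH2 group to 33.0% of si-Control and stood at 69.8% and 68.5% in the EZH2sr and T350Asr groups. By limma, EZH2 was still called below si-Control with EZH2sr (adjusted p = 0.0107) and T350Asr (adjusted p = 0.0200). It was also called below DMSO with TSA (76.8%, adjusted p = 0.00520) and with Roscovitine (72.9%, adjusted p = 0.0350). The Roscovitine and T350Asr groups shared a difference between their 2 arrays: across 37103 probe sets the difference between replicates 1 and 2 correlated between both groups with r = 0.630, which does not show which array of each pair deviated. Other pairs of groups gave r from -0.228 to 0.212. Markers of liver, where UGT2B genes are abundant, had summed signals of 811 to 1037 on all arrays over 7 of 8 genes, leukocyte markers 275 to 369 over 4 of 5, and fibroblast and endothelial markers 2284 to 3263 over 5. With TSA, COL1A1 (1.49 ± 0.16) and the liver marker FGB (0.36 ± 0.12) rose, and COL3A1 (-0.78 ± 0.15), VWF (-0.70 ± 0.12) and the leukocyte marker PTPRC (-0.62 ± 0.14) fell, and the other measured markers of these 3 lists were not called. Luminal prostate markers (9 of 11 measured) summed to 43518 to 45161 in DMSO.

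The names with _x_at mark probe sets whose probes may also bind related transcripts. This applies to UGT2B15 207392_x_at and 216687_x_at and to UGT2B28 211682_x_at, so a signal under one of these names can include RNA of another UGT2B gene. UGT2B15 216687_x_at and 217175_at were both designed on the same transcript record. The 5 probe sets are therefore not 5 independent readings, and the probe sequences were not used here. A probe set's level was not compared with that of another probe set.

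The promoter of UGT2B15 is shown because 2 of 5 short motifs searched on both strands lie close together in it. It runs over chr4:68670603-68670902 of GRCh38.p14 (RefSeq) on the minus strand, from 250 bases before to 50 bases after the start. Capitals mark GTAAACA, which is the forkhead motif TGTTTAC on the opposite strand, and AGAACA, a core motif of steroid receptor binding.
UGT2B15: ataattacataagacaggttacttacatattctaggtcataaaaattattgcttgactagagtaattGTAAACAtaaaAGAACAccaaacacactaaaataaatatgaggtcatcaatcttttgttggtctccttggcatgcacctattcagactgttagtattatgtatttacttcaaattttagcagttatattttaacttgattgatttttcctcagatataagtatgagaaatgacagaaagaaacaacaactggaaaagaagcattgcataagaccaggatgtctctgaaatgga

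The first base of GTAAACA lies 183 bases and that of AGAACA 172 bases before the start, and the 2 motifs do not overlap. TGTTTAC was present on either strand in 3.42% of 35116 promoter windows of the same length, and AGAACA in 14.8%. TGTTTGC, a second forkhead motif (3.89% of windows), GTTAAT, a core motif of HNF1 (6.88%), and ATTTGCAT, an octamer motif (1.77%), had no match in the UGT2B15 window. A match describes letters and not a bound site.

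None of the 5 motifs was present in the promoter windows of UGT2B10, UGT2B7 or UGT2B11, the other members with a promoter in the RefSeq table. Only exact matches were counted. Where UGT2B15 reads GTAAACA, these other promoters read ataaaca, which differs in the first base alone. The aligned stretches below show how these promoters differ from UGT2B15 where its 2 motifs lie, with the motifs in capitals.
UGT2B15: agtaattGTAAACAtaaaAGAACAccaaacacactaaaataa
UGT2B10: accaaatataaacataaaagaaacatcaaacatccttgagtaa
UGT2B7: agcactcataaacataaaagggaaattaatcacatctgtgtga
UGT2B11: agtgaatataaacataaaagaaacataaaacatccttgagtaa

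Over the whole window, UGT2B15 shared 70.2% of aligned bases with UGT2B11, 67.8% with UGT2B10 and 63.0% with UGT2B7. UGT2B10 and UGT2B11 shared 90.1%. UGT2B17 and UGT2B28 are named here without a promoter.

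TSA lowered all 5 probe sets of UGT2B15, UGT2B17 and UGT2B28, to between 4.57% and 13.6% of the DMSO mean. UGT2B17 (207245_at) read 3790.0 and 3890.0 on the DMSO arrays and 519 and 529 on the TSA arrays. UGT2B15 (207392_x_at) read 6129 and 6332 with DMSO and 769.8 and 776 with TSA. UGT2B28 (211682_x_at) read 3851 and 3992 with DMSO and 475 and 463 with TSA. In each of these the arrays of a group lay close together and the groups did not overlap. The share of all probe sets without overlap was not counted.

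The other UGT2B15 probe sets also fell. UGT2B15 216687_x_at went from 3362 and 3184 to 148 and 151, a 21.9-fold lower mean. UGT2B15 217175_at went from 493 and 524 to 42.7 and 25.6. Its TSA values lay in the range under 50 in which 31.7% and 31.8% of all probe sets of these arrays stood, so the size of its fall depends on the pseudocount, with log2 differences of -3.90 and -2.55 at pseudocounts of 1 and 64. The ratios of the DMSO to the TSA mean were 8.06 for UGT2B15 207392_x_at, 7.33 for UGT2B17 and 8.36 for UGT2B28.

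On the scale log2(signal + 16), limma gave differences of -2.84 ± 0.10 (SE) for UGT2B17 (adjusted p = 7.64e-08), -2.98 ± 0.11 for UGT2B15 207392_x_at (1.13e-07) and -3.02 ± 0.09 for UGT2B28 (5.06e-08). UGT2B15 216687_x_at differed by -4.31 ± 0.14 (adjusted p = 5.82e-08) and 217175_at by -3.41 ± 0.15 (2.78e-07). All 5 probe sets passed an adjusted p of 0.05, against 16.3% of all probe sets that were lower with TSA. When the 54613 differences were ordered from the lowest, the 5 stood between places 25 and 159. In bulk RNA, fewer cells of a type and less RNA per cell cannot be told apart. All 118 differences recomputed under the other settings were called, between -4.44 and -2.55.

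**Figure D1:**
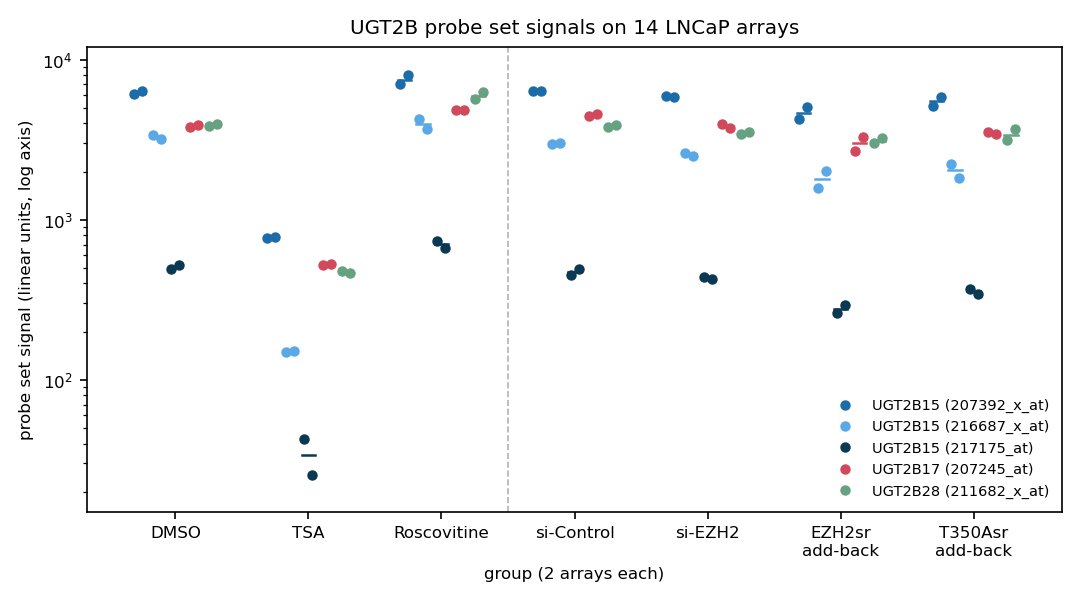
Signal of the 5 UGT2B probe sets (linear units, log axis) on each of the 14 arrays, with points for arrays, short lines for group means and a dashed line between the drug and the transfection experiment. The 2 TSA arrays lie far below all others, and the 2 Roscovitine arrays are highest, for every probe set.

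Among other UGT genes, 6 of 16 had a probe set. UGT2B4, a bile acid glucuronosyltransferase next to the members on chromosome 4, read 45.0 and 51.8 with DMSO and 9.91 and 15.5 with TSA, and fell by 1.17 ± 0.16 on the log2 scale (adjusted p = 0.000270). At such low signals the size depends on the pseudocount (-1.87 and -0.55 with 1 and 64). UGT8, which makes galactosylceramide and not glucuronides, rose from a mean of 59.4 to 567, a difference of 2.95 ± 0.09 (adjusted p = 5.82e-08). The remaining 4, UGT1A1, UGT1A6, UGT2A3 and UGT3A1, did not pass, with differences from -0.43 to 0.21.

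Of the 13 genes that supply UDP-glucuronic acid, move glucuronides or remove glucuronic acid, 5 fell, 1 rose and 7 did not pass, with a median difference of -0.16. Over all 19775 genes 20.5% fell and 19.4% rose, with a median of 0.0085. UGDH, which oxidises UDP-glucose to UDP-glucuronic acid, fell from 1778 to 457 (-1.92 ± 0.12). PGM1, which makes glucose 1-phosphate upstream of it, fell from 1286 to 443 (-1.50 ± 0.11), and ABCC4, an exporter of conjugated steroids among other anions, fell from 6986 to 1014 (-2.77 ± 0.07). HK1, a hexokinase, rose from 2744 to 4366 (0.67 ± 0.11).

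The 31 measured genes of androgen synthesis, activation and other inactivation counted 8 that rose with TSA, 5 that fell and 18 that did not pass, with a median of -0.03, near the 19.4% that rose and 20.5% that fell over all genes. AKR1C3, which reduces androstenedione to testosterone, rose from 24.1 to 797 (4.37 ± 0.29). AKR1C2, which reduces dihydrotestosterone to androstanediol, a substrate of UGT2B15 and UGT2B17, rose from 88.3 to 994 (3.28 ± 0.30), and HSD17B11 rose from 279 to 808 (1.48 ± 0.15). HSD17B1, a 17-beta-hydroxysteroid dehydrogenase, fell from 598 to 283 (-1.04 ± 0.11). The AKR1C genes are close paralogs, so their probe sets may share RNA.

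Of 11 measured transcription factors reported to act on UGT2B genes, 5 fell, 1 rose and 5 did not pass, with a median of -0.56. Over all genes 20.5% fell and 19.4% rose. FOXA1 read 6958 and 7353 with DMSO and 740 and 793 with TSA, and fell by 3.20 ± 0.10 (adjusted p = 6.22e-08). CEBPB fell by 1.03 ± 0.09 and NFE2L2, the oxidative stress factor NRF2, by 0.67 ± 0.09, while VDR, the vitamin D receptor, rose by 0.87 ± 0.16.

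The list of 15 androgen-induced genes, which move opposite to UGT2B15 and UGT2B17 when androgen is added, was also lower with TSA: 12 fell, 1 rose and 2 did not pass, with a median of -1.97, against 20.5% of all genes that fell and 19.4% that rose. KLK3, which encodes prostate-specific antigen, fell from 10266 to 317 (-4.95 ± 0.18), KLK2 from 4064 to 49.8 (-5.96 ± 0.21) and ACP3, prostatic acid phosphatase, from 1188 to 107.4 (-3.29 ± 0.14). The luminal prostate markers, which share KLK2, KLK3, SLC45A3 and TMPRSS2 with this list, summed to 14871 to 15556 with TSA. Among the 8 genes that mark androgen-independent prostate lines, VIM, CAV1 and ANXA1 rose (19.4% of all genes rose), and the sum over all 8 was 1113 to 1137 with DMSO and 2148 to 2223 with TSA. The part of these shifts in the UGT2B result was not tested.

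**Figure D2:**
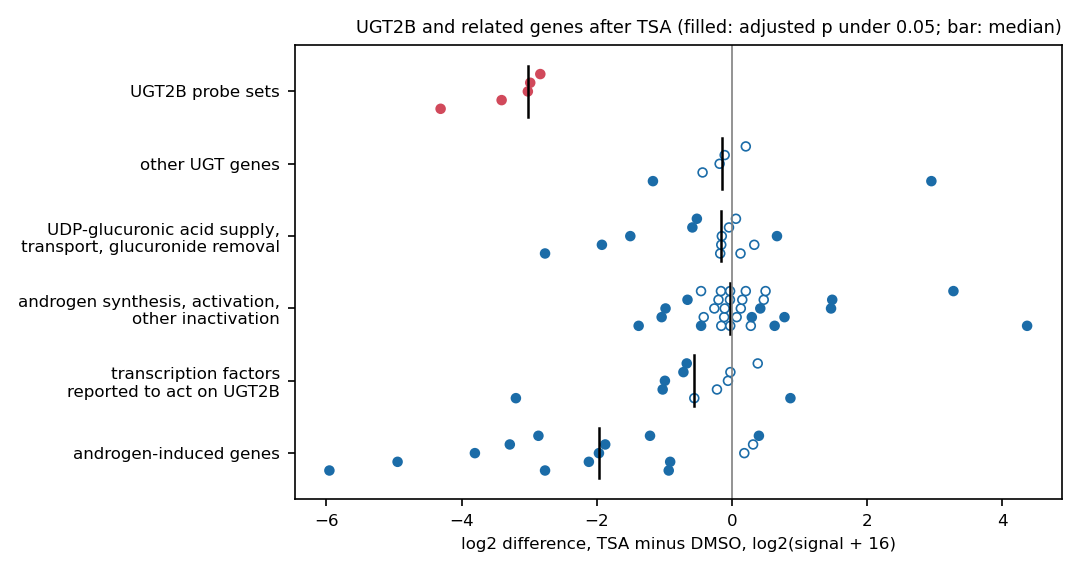
Log2 differences between TSA and DMSO for the 5 UGT2B probe sets and for the genes of 5 related lists (points, 1 per gene, filled where the adjusted p is under 0.05; vertical bars are list medians). The UGT2B probe sets lie between -4.31 and -2.84, the androgen-induced genes have a median of -1.97, and the lists of other UGT genes, sugar donor supply and androgen synthesis have medians near 0.

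Roscovitine left the UGT2B probe sets at or above the DMSO level. UGT2B28 rose, from 3851 and 3992 to 5689 and 6243, which is 152.1% of the DMSO mean and a log2 difference of 0.60 ± 0.09 (adjusted p = 0.0222). UGT2B17 read 4833 and 4846, or 126.0% of DMSO (0.33 ± 0.10, adjusted p = 0.165). UGT2B15 207392_x_at read 7002 and 8022, or 120.6% (0.27 ± 0.11, adjusted p = 0.352). Both Roscovitine arrays were above both DMSO arrays in these probe sets, but only UGT2B28 passed. The share of all probe sets with such a separation was not counted.

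UGT2B15 216687_x_at read 4269 and 3670 with Roscovitine (0.27 ± 0.14, adjusted p = 0.464) and 217175_at 739 and 669 (0.46 ± 0.15, adjusted p = 0.223). Thus 1 of 5 probe sets was called higher, against 0.342% of all probe sets. The call of UGT2B28 rested on few arrays. Without the second Roscovitine array its difference was 0.54 with an adjusted p of 0.144. It was also lost without the first Roscovitine array (0.67, adjusted p = 0.0531), either DMSO array (0.58 and 0.63, adjusted p = 0.179 and 0.154) or either si-Control array (adjusted p = 0.0522 each). Whether UGT2B28 differed from UGT2B15 and UGT2B17 in its response was not tested.

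The other gene groups moved little with Roscovitine. UGT2B4 read 25.0 and 16.2 and was lower (-0.82 ± 0.16, adjusted p = 0.0432), opposite to UGT2B28, at signals near the bottom of the range. This call was lost in 12 of 14 fits that left out 1 array, those without a DMSO, TSA, Roscovitine, si-Control, si-EZH2 or T350Asr array (adjusted p = 0.0569 to 0.265). None of 13 sugar donor genes, 31 androgen metabolism genes or 15 androgen-induced genes passed, against 0.324% of genes that rose and 1.25% that fell. Of the 11 transcription factors CEBPB fell (-0.61 ± 0.09, adjusted p = 0.0229). FOXA1 (106.1% of DMSO, adjusted p = 0.809) and KLK3 (104.4%, adjusted p = 0.940) did not pass.

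Set directly against each other, the drugs differed in all 5 probe sets. TSA was below Roscovitine, with log2 differences of -3.17 ± 0.10 for UGT2B17 (adjusted p = 4.54e-08), -3.62 ± 0.09 for UGT2B28 (2.00e-08) and -4.58 to -3.25 for UGT2B15. All 5 were called, and 16.6% of all probe sets were lower in this comparison. UGT2B4 did not differ beyond its error (-0.35 ± 0.16, adjusted p = 0.128). This comparison uses the TSA arrays of the one above and is not a second reading of them.

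With knockdown of EZH2 the UGT2B probe sets read slightly below si-Control, and none passed the threshold. UGT2B17 read 4464 and 4585 with si-Control and 3959 and 3767 with si-EZH2, which is 85.4% (-0.23 ± 0.10, adjusted p = 0.529). UGT2B15 207392_x_at read 6356 and 6391 against 5896 and 5826, or 92.0% (-0.12 ± 0.11, adjusted p = 0.853). UGT2B28 read 3806 and 3917 against 3457 and 3552, or 90.8% (-0.14 ± 0.09, adjusted p = 0.748). The si-EZH2 arrays lay below the si-Control arrays in each of these, a separation whose share over all probe sets was not counted.

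UGT2B15 216687_x_at read 2976 and 3017 with si-Control and 2620.3 and 2514 with si-EZH2 (-0.22 ± 0.14), and 217175_at read 449 and 495 against 436 and 426 (-0.13 ± 0.15). By limma 0 of 5 probe sets passed after adjustment and 1, UGT2B17, had an unadjusted p under 0.05 (0.0417). Over all 54613 probe sets, 4882 had an unadjusted p under 0.05, and 0.233% were called in either direction. The 95% intervals of the 5 log2 differences together ran from -0.53 to 0.21. None of the 6 other UGT genes, 13 sugar donor genes, 31 androgen metabolism genes, 11 transcription factors or 15 androgen-induced genes was called. UGT2B4 read 83.5 and 77.2 against 46.1 and 53.3 (0.55 ± 0.16, adjusted p = 0.282).

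Cells given EZH2sr on top of the siRNA had the lowest UGT2B signals of the transfection experiment. UGT2B17 read 2695 and 3308, or 66.3% of si-Control (-0.60 ± 0.10, adjusted p = 0.0122). UGT2B15 216687_x_at read 1576 and 2028, or 60.1% (-0.74 ± 0.14, adjusted p = 0.0211), and 217175_at read 263 and 293, or 58.8% (-0.73 ± 0.15, adjusted p = 0.0302). These 3 probe sets fell.

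UGT2B15 207392_x_at read 4264 and 5076, or 73.3% (-0.45 ± 0.11, adjusted p = 0.0560), and UGT2B28 3002 and 3229, or 80.7% (-0.31 ± 0.09, adjusted p = 0.109). For all 5 probe sets both EZH2sr arrays lay below both si-Control arrays. How many of all probe sets separated in this way was not counted. Of the 5, 3 passed, against 1.53% of all probe sets that were called lower. In the EZH2sr group the first array was lower than the second for each of the 5 probe sets.

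These calls depended on single arrays. UGT2B17 was no longer called without si-Control replicate 1 (-0.62, adjusted p = 0.0768) or replicate 2 (-0.58, adjusted p = 0.0942). UGT2B15 216687_x_at lost its call without either si-Control array (adjusted p = 0.119 and 0.131) or EZH2sr replicate 1 (-0.56, adjusted p = 0.107). UGT2B15 217175_at lost its call in these 3 cases too (adjusted p = 0.119, 0.180 and 0.158), and without either DMSO or either si-EZH2 array (adjusted p = 0.0559 and 0.0556). The direction was below si-Control in all 118 differences recomputed, from -0.92 to -0.26.

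Against si-EZH2 itself, which shares the siRNA, the EZH2sr cells differed by -0.61 ± 0.15 for UGT2B15 217175_at (adjusted p = 0.0456), by -0.52 ± 0.14 for 216687_x_at (0.0586) and by -0.37 ± 0.10 for UGT2B17 (0.0550). UGT2B15 207392_x_at differed by -0.33 ± 0.11 (adjusted p = 0.116) and UGT2B28 by -0.17 ± 0.09 (adjusted p = 0.360). Thus 1 of 5 was called, against 4.17% of all probe sets that were lower. That single call was lost in 12 of the 14 fits that left out 1 array, those without a DMSO, Roscovitine, si-Control, si-EZH2, EZH2sr or T350Asr array. It held only without either TSA array. Both comparisons share the EZH2sr arrays, and in both the plasmid itself and the EZH2 it encodes cannot be told apart.

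In the related gene lists few members passed in these cells. Against si-Control, 0 of 6 other UGT genes and 0 of 11 transcription factors passed, FOXA1 among them at 97.9%, while 3.07% of all genes rose and 1.95% fell. Of 15 androgen-induced genes 2 fell, ACP3 (-0.81 ± 0.14) and TRPM8, a cold-sensing ion channel (-0.54 ± 0.11), with a list median of -0.17. In androgen metabolism 3 of 31 rose: AKR1C2 from 124 to 851 (2.53 ± 0.30), AKR1C1 from 359 to 1003 (1.38 ± 0.29) and CYP3A5, a cytochrome P450 that hydroxylates testosterone, from 219 to 896 (1.90 ± 0.22). HK2, a hexokinase, rose from 896 to 3558 (1.95 ± 0.18) and PGM1 from 1467 to 2137 (0.53 ± 0.11) among the 13 sugar donor genes.

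Against si-EZH2, UGT2B4 fell by 0.93 ± 0.16 (adjusted p = 0.0127) and UGT8 by 0.68 ± 0.09 (adjusted p = 0.00713), from means of 80.4 and 60.5. The UGT2B4 call was lost without either si-EZH2 array (adjusted p = 0.0852 and 0.0759). KLK2 fell by 1.02 ± 0.21 in this comparison and was the 1 called of 15 androgen-induced genes. UGT2B4 and UGT8 were the 2 called of 6 other UGT genes. Over all genes 5.46% fell and 2.64% rose. KLK3 read 5100 and 8073 in the EZH2sr group, with replicate 1 the lower, as for the UGT2B probe sets. The luminal prostate markers summed to 36039 and 41953 in this group against 44090 to 44131 in si-Control, and the markers of androgen-independent lines to 1860 to 2392 against 1376 to 1489. Against si-Control, 0 of 9 measured luminal markers were called, KLK3 among them. Of the 8 markers of androgen-independent lines 2 rose, against 3.07% of all genes. In the T350Asr group the sums were 41310 to 46921 and 1721 to 1824. The part of these markers in the lower UGT2B signals was not tested.

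The T350Asr cells lay between si-EZH2 and EZH2sr. UGT2B17 read 3539 and 3426, or 77.0% of si-Control. UGT2B15 207392_x_at read 5102 and 5875, 216687_x_at 2239 and 1830.4, and 217175_at 372 and 341. UGT2B28 read 3145 and 3669. The mean of each probe set was above that of the EZH2sr group and below that of si-EZH2.

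None of these differences passed. Against si-Control they ranged from -0.56 to -0.18 (adjusted p = 0.116 to 0.482), with 0 of 5 called and 1.02% of all probe sets called in either direction. In that comparison 3 of 5 had an unadjusted p under 0.05, UGT2B17 (0.00345), UGT2B15 216687_x_at (0.00260) and 217175_at (0.0277), as had 6614 of all 54613 probe sets. Against si-EZH2 the 5 differences ranged from -0.34 to -0.04 (adjusted p = 0.418 to 0.925), with 0 of 5 called and 0.342% of all probe sets called. Of the 5, 1 had an unadjusted p under 0.05 (216687_x_at, 0.0346), as had 5843 of all 54613 probe sets. In the related gene lists, 1 of 6 other UGT genes fell against si-EZH2, against 0.0809% of all genes. It was not UGT2B4 (-0.41 ± 0.16, adjusted p = 0.384). Against si-Control, 1 of 31 androgen metabolism genes rose, against 1.15% of all genes.

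The direct comparison of both add-backs asks whether the mutation of T350 changed the UGT2B response. All 5 probe sets were higher with T350Asr than with EZH2sr, by 0.22 ± 0.10 for UGT2B17, 0.13 to 0.34 over the 5, and 0 were called (adjusted p = 0.365 to 0.597). By unadjusted p, 2 of 5 were under 0.05, UGT2B17 (0.0468) and UGT2B15 217175_at (0.0458), as were 7327 of all 54613 probe sets. At the adjusted threshold 0.0348% of all probe sets were called. The 95% intervals of the 5 differences together ran from -0.13 to 0.68, and a missed threshold does not show that both forms acted alike. EZH2 itself was at 831 and 816 in the 2 groups. The EZH2sr minus si-Control and T350Asr minus si-Control differences share their control arrays.

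**Figure D3:**
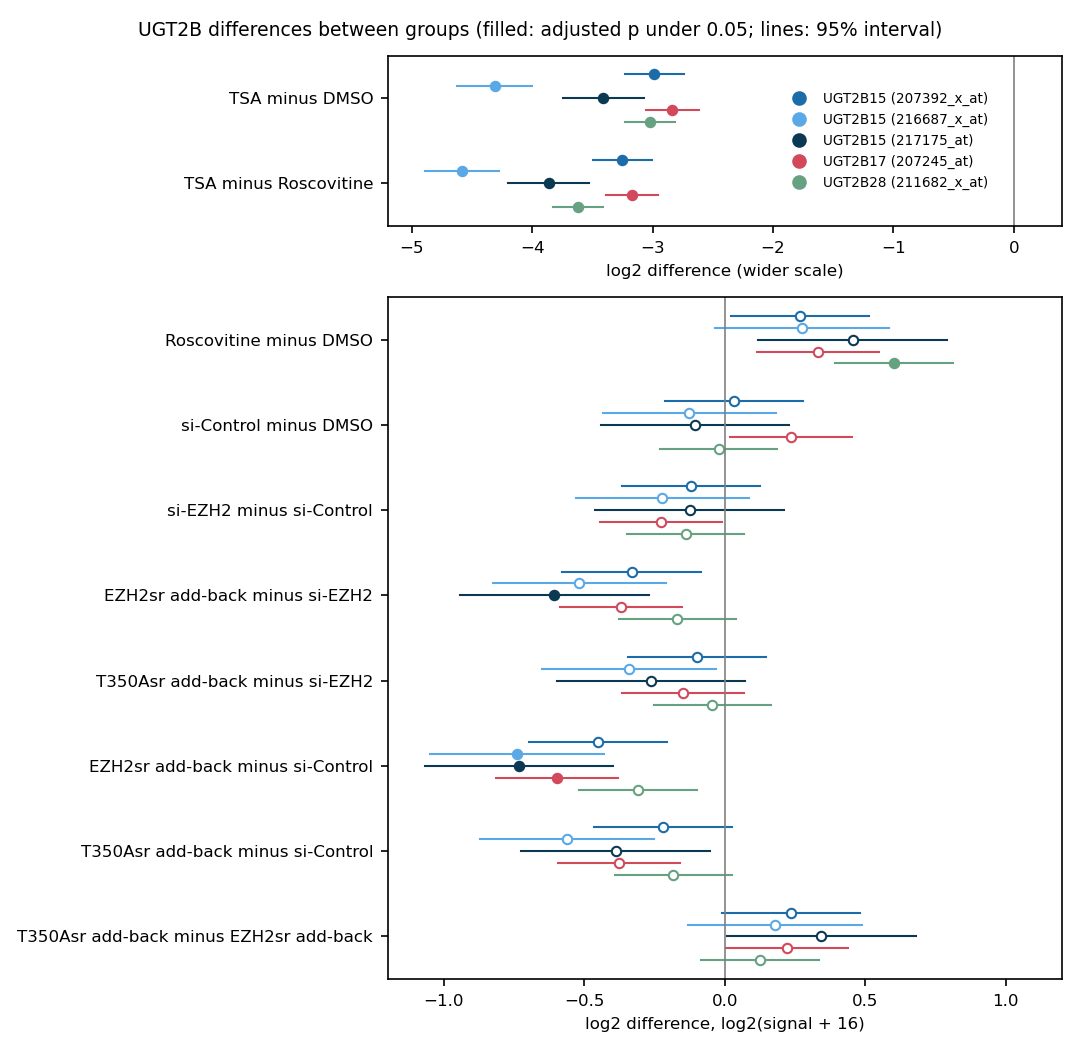
Log2 differences (points) with 95% intervals (lines) of the 5 UGT2B probe sets in 10 comparisons, filled where the adjusted p is under 0.05. The upper panel, on a wider scale, holds both TSA comparisons with differences from -4.58 to -2.84. The lower panel holds the others, of which UGT2B28 with Roscovitine, 1 probe set of EZH2sr against si-EZH2 and 3 of EZH2sr against si-Control are filled.

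The controls of both experiments differed in transfection, solvent and time together. UGT2B17 was 0.24 ± 0.10 higher in si-Control than in DMSO (adjusted p = 0.236, unadjusted p = 0.0362), and the other 4 probe sets differed by -0.13 to 0.03. None of the 5 was called, against 5.62% of all probe sets in either direction. An unadjusted p under 0.05 was found for 9587 of all 54613 probe sets.

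Across all 7 groups the order of the means was alike. TSA was lowest, EZH2sr next and T350Asr above that, and Roscovitine was highest for every probe set. Among neighbours in this order, the arrays of EZH2sr and T350Asr overlapped for UGT2B15 216687_x_at and UGT2B28, those of T350Asr and si-EZH2 for UGT2B15 207392_x_at and UGT2B28, and those of si-Control and DMSO for UGT2B15 217175_at and UGT2B28. For UGT2B17, DMSO (3840.0) and si-EZH2 (3863) overlapped. TSA overlapped no group.

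The 5 probe sets followed each other closely: Pearson's r between pairs was 0.984 to 0.997 over 14 arrays, and 0.801 to 0.966 over the 12 arrays without TSA. These arrays share the drug contrast, and the probe sets may share RNA, so the values are a description. Among 15759 other genes with a mean signal of at least 50, PRAC1, a small nuclear protein expressed in prostate and colon, had the highest r with UGT2B15 207392_x_at (0.997), UGT2B17 (0.994) and UGT2B28 (0.992) over 14 arrays. NUDT19 came first for UGT2B15 216687_x_at (0.992) and MCRIP2 for 217175_at (0.990). Without TSA, PRAC1 had r = 0.919, 0.864 and 0.939 with the first 3 probe sets. PRAC1 read 6843 with DMSO and 2356 with TSA, a log2 difference of -1.53 ± 0.07, smaller in size than that of any of the 5 UGT2B15, UGT2B17 and UGT2B28 probe sets.

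The UGT2B genes lie in a cluster on chromosome 4. The 10 protein-coding genes on either side, chosen after the data had been seen, were read from the same fit. Of 28 genes in this stretch 19 had a probe set. With TSA, UGT2B17, UGT2B15, UGT2B28 and UGT2B4 fell and 1 other gene was called: UBA6, a ubiquitin-activating enzyme, rose from 1059 to 1500 (0.50 ± 0.09, adjusted p = 0.00234). Over all genes 20.5% fell and 19.4% rose with TSA. Of the 15 measured genes other than UGT2B, 7 had a mean signal under 50, which leaves less room for a fall, although UGT2B4 was called lower at a mean of 43.3. YTHDC1, a reader of methylated RNA between UBA6 and the cluster, read 2038 with DMSO and 1943 with TSA (-0.07 ± 0.09, adjusted p = 0.655). CENPC, a centromere protein, read 338 with DMSO and 347 with TSA (0.04 ± 0.11). UGT2A3, whose gene lies among the UGT2B genes, read 43.1 with DMSO and 40.1 with TSA (-0.11 ± 0.29). SULT1E1, the estrogen sulfotransferase on the other side, read 42.8 with DMSO and 64.03 with TSA (0.47 ± 0.24, adjusted p = 0.197). With EZH2sr against si-Control, UGT2B17 was the 1 gene of the 19 that was called, each gene being represented by its brightest probe set. For UGT2B15 this was 207392_x_at (adjusted p = 0.0560), while its probe sets 216687_x_at and 217175_at were called lower.

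**Figure D4:**
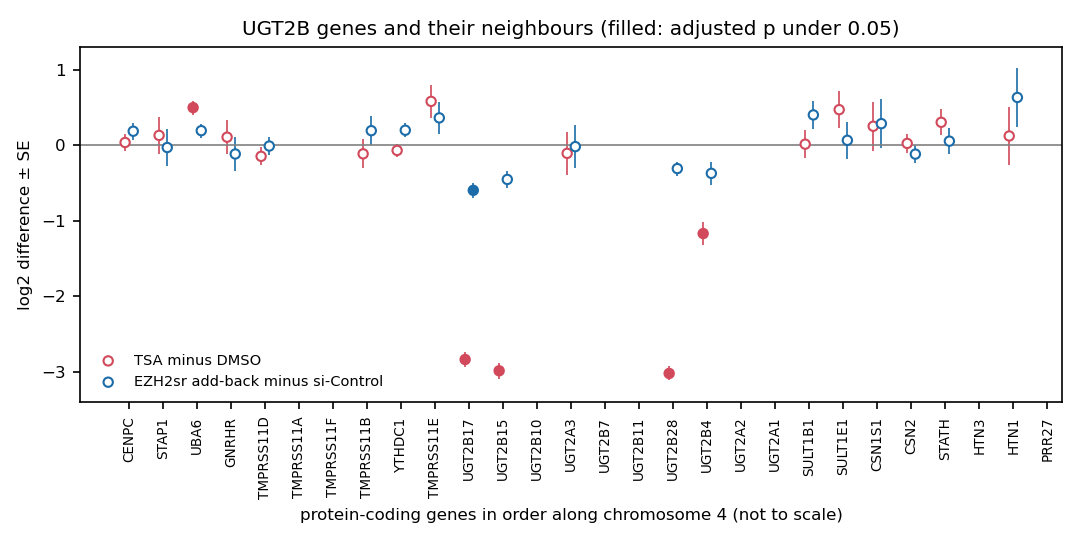
Log2 difference ± SE of the UGT2B genes and their protein-coding neighbours, in order along chromosome 4 and not to scale, for TSA minus DMSO and for EZH2sr minus si-Control (filled where the adjusted p is under 0.05; gene names without a point had no probe set). With TSA UGT2B17, UGT2B15 and UGT2B28 lie between -3.02 and -2.84 and UGT2B4 at -1.17, UBA6 lies at 0.50, and the other points are not filled.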

How the data were processed

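The deposited intensity values are linear probe set signals on Affymetrix arrays, 1 array per sample, as the authors summarised them. Per the labels' protocols, total RNA came from a Qiagen RNeasy extraction. The summarisation and scaling are not given in the sources used here, and no detection calls were used. A second deposited table repeats the same intensity values for 7022 probe sets, with 0 differing by over 0.005, and holds 0 UGT2B probe sets. Of 54613 probe sets 41091 carried 1 symbol in the platform annotation, 1801 several and 11721 none. For genes outside the family, the probe set with the highest mean stood for the gene.

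The analysis scale was log2(value + 16). A single limma fit (version 3.58.1 in R 4.3.3, with lmFit, contrasts.fit and eBayes) took in all 14 arrays and estimated 7 group means, with 7 residual and 2.09 prior degrees of freedom. No replicate block was used. The Benjamini-Hochberg adjustment ran over all 54613 probe sets within each of 10 contrasts. A probe set counts as called when its adjusted p is under 0.05, and "rose" and "fell" describe called values. Percentages and ratios of means are on the linear signal. The number of arrays limits the precision. In simulated data for TSA against DMSO, 4, 42, 49 and 50 of 50 probe sets changed by -0.5, -1, -2 and -4 (log2) were recovered, and for EZH2sr against si-Control 8, 43, 48 and 49. All other probe sets were left unchanged there, while 31.9% and 3.87% of all probe sets were called in the real comparisons. With more called probe sets the adjusted threshold is less strict, so these counts do not give the recovery in the real fit.

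Members, gene lists, markers and alternatives were chosen with earlier results of these data known. Named genes were the members, EZH2, FOXA1 and KLK3, any other UGT gene, up to 4 called genes per list with the smallest p, and the 5 genes most correlated with each member. Promoters and motif shares are from RefSeq, GRCh38.p14. Python 3.11.15 with pandas 2.3.3 made the tables, and matplotlib 3.10.9 drew the figures.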

Additional observations from a re-analysis of the deposited data

How the results depend on the processing

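Over 24 alternative fits, 200 of 240 counts of called UGT2B probe sets stayed within 1.5 times the reported count. Of 1410 recomputed log2 differences, 1306 kept direction and side of the threshold, 63 lost and 34 gained a call, and 7 changed sign. The alternatives were a mean signal of at least 50, 1 probe set per gene, quantile normalization, arrays at the same median, pseudocounts of 1 and 64, an intensity trend with a robust prior, each experiment by itself, a replicate block, each array left out, and the second Roscovitine and second T350Asr arrays both left out. With 1 probe set per gene, 3 probe sets were called for TSA against DMSO and 3 for TSA against Roscovitine, because only 3 were tested. For Roscovitine against DMSO (reported count 1) the count was 0 within the drug experiment alone, 2 with the trend and 0 without these 2 arrays, and 0 to 2 when 1 array was left out. For EZH2sr against si-EZH2 (reported count 1) it was 3 with the signal filter, 0 with quantile normalization, 0 at the same median, 0 and 3 with pseudocounts of 1 and 64, 0 within the experiment alone, 4 with the trend, and 0 to 3 when 1 array was left out. For EZH2sr against si-Control (reported count 3) it was 5 with quantile normalization, 0 within the experiment alone, 5 with the trend, and 0 to 4 when 1 array was left out. For T350Asr against si-Control (reported count 0) it was 2 with the trend and 0 to 1 when 1 array was left out. The cause of these shifts was not tested, except that fits within 1 experiment have fewer arrays.

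The replicate numbers share only a number, and no label ties them to a day. With the replicate block the count for EZH2sr against si-EZH2 was 0, and the other 9 counts stayed within 1.5 times. The 7 sign changes were in differences that were not called. When 1 array was left out, T350Asr against si-EZH2 ranged from -0.20 to 0.0034 for UGT2B15 207392_x_at and from -0.16 to 0.066 for UGT2B28, with the high end without T350Asr replicate 1. T350Asr against EZH2sr ranged from -0.0028 (without EZH2sr replicate 1) to 0.36 for UGT2B15 216687_x_at. For si-Control against DMSO, UGT2B28 gave 0.0035 with quantile normalization and -0.048 to 0.0036 with 1 array left out (0.0036 without DMSO replicate 2), and UGT2B4 -0.050 to 0.11, with -0.047 without DMSO replicate 1 and -0.050 without si-Control replicate 2. Over all probe sets, EZH2sr against si-EZH2 gave 1199 higher and 2279 lower calls, but 1300 and 1149 with arrays at the same median. Knockdown gave 109 and 18, but 104 and 48 with quantile normalization, and T350Asr against si-Control 473 and 85, but 331 and 172.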

Other observations

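Beyond those given above, the genes whose signals ran most like the UGT2B probe sets over the 14 arrays had varied roles. For UGT2B15 207392_x_at they were IFRD2, F12 (coagulation factor XII), ATP5MC2 (a subunit of mitochondrial ATP synthase) and MARVELD1. For UGT2B15 216687_x_at they were PAICS, an enzyme of purine synthesis, PPP1R14B, PRAC1 and PYM1, and for 217175_at PRR7, CISD3, PAICS and SAMD13. For UGT2B17 they were CDK4, a cyclin-dependent kinase, RNF130, MICOS10 and F12, and for UGT2B28 SRM, the spermidine synthase, ARPP19, CALD1, an actin-binding protein, and LSM7. Their r was 0.985 to 0.995 over 14 arrays and 0.772 to 0.949 over the 12 arrays without TSA. All 20 genes so chosen, PRAC1, NUDT19 and MCRIP2 included, were lower with TSA, which the choice by correlation with these probe sets fixes. SAMD13 had the largest difference among them (-3.77 ± 0.15, from 1730 to 112) and MICOS10 the smallest (-0.77 ± 0.07, from 4869 to 2858).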
